A study of Mus musculus with 20 samples.

Results

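The 10 genes described here encode the enzymes and core partners that write, copy and remove DNA methylation and the repressive Polycomb mark on histone H3. They were taken by symbol from the 16927 genes listed in the deposited gene table, and all 10 were found and passed the filter on low counts, which kept 13046 genes. The RNA came from adult mouse spinal cord neural stem cells that had been cultured as neurospheres, which are floating clusters of dividing cells. The model carries a Yap1 gene whose exon 3 can be deleted by Cre, and Cre was delivered to the cells by an adenovirus with the CMV promoter. The 4 groups were YAP1-depleted cells (KO) and wild-type cells (WT), each after 7 days of proliferation in medium with heparin, EGF and FGF2, or after 5 days of differentiation, for which these additions are not listed. The labels give 1 treatment text for all samples and do not say whether WT cells carried the deletable allele or met the virus, nor the age of the mice beyond adult. Of 20 labelled samples, 8 were used, namely replicates 7 and 8 in every group (n = 2), with total counts between 18075595 and 18940983, and the other 12 were not analysed here. No label says whether replicates are separate animals or cultures, so p-values measure no more than the spread among these libraries, possibly a technical one.

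DNA methylation is copied after replication by DNMT1, which UHRF1 brings to DNA that carries the mark on a single strand. DNMT3A and DNMT3B place methyl groups on DNA that had none, and the TET enzymes TET1, TET2 and TET3 oxidise methylcytosine, which starts its removal. EZH1 and EZH2 are the alternative catalytic subunits of Polycomb repressive complex 2, which methylates histone H3 at lysine 27, and SUZ12 is a core subunit that the complex needs. In the nervous system these enzymes are studied because they hold back or release genes as neural stem cells leave the cell cycle and form glia or neurons. Transcripts were measured here, not methylation of DNA or histones.

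Promoter windows of 4 members are shown because they hold a short letter pattern read by E2F transcription factors, several of which switch on genes for DNA synthesis, and these 4 genes also fell in differentiation (values below). The sequences are from RefSeq on build GRCm38.p6, run 5′ to 3′ along the gene and cover 250 bases before to 50 bases after an annotated start. Capitals mark every match to TTTGGCGC, TTTCCCGC, TTTCGCGC or TTTGCCGC on either strand. The Uhrf1 and Dnmt1 windows belong to a further annotated start of each gene, at chr17:56304063-56304362 on the plus strand and chr9:20952574-20952873 on the minus strand. The Ezh2 window is chr6:47594981-47595280 on the minus strand and the Suz12 window is chr11:79992856-79993155 on the plus strand.
Dnmt1: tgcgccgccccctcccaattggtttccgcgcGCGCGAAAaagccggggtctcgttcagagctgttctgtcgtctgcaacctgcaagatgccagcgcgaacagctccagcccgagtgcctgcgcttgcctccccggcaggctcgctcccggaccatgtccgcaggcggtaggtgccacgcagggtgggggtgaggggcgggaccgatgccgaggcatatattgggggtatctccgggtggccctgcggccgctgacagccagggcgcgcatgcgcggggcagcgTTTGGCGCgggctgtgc
Uhrf1: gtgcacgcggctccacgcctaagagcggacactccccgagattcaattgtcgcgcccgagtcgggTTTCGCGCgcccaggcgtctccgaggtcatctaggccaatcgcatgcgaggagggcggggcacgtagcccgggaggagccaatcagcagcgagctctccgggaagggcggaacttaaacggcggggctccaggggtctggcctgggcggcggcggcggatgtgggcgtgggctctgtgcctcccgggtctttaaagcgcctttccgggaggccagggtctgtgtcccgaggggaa
Ezh2: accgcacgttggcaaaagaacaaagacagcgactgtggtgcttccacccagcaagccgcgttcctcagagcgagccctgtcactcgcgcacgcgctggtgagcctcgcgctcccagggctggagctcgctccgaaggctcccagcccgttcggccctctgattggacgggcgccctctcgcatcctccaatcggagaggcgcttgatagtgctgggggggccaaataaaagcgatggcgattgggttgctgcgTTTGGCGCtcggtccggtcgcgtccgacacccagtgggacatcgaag
Suz12: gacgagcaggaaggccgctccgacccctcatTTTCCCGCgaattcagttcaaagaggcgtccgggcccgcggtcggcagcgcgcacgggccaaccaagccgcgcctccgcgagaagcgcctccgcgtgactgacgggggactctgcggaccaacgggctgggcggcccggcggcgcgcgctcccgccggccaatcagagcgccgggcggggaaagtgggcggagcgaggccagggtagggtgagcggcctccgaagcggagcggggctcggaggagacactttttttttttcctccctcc
The Dnmt1 window has 2 matches, the first of them on the other strand, and the other windows have 1 each. These letters were in 4 of the 15 windows of the 10 members, all of which matched by symbol, and in 2.26% of the 32851 promoter windows of the table. Each of the patterns contains a CpG (C followed by G). The window taken as the main one held at least 7 CpG, the median of all windows, in all 10 members. The shares were not matched for CpG. Dnmt1 has 3 windows and Uhrf1 has 2, and their other windows, including the one at the start taken as the main start of each gene, hold none of these letters. Tet3, which also passed as lower in differentiation in both genotypes, has 1 window, and that window holds none of them either. Among tested genes with a window, 4.74% of 10440 held the letters in any window, against 7.71% of 2517 genes that passed the test as lower in differentiation in both genotypes and 3.44% of 2295 genes that passed as higher in both. The related letters GCGGGAA, which overlap the reverse complement of TTTCCCGC, were found for Uhrf1 and Suz12 and in 4.6% of all windows. The letters TTTGAA were found for Dnmt1, Dnmt3b and Suz12 and in 17.9% of windows. GGAATG, the letters of the TEAD factors through which YAP1 acts, were found for Uhrf1 and in 14.7% of windows. For these further letters a member is named if any of its windows matched, while the percentages count single windows, so the shares are unlike. The matches of Uhrf1 to GCGGGAA and GGAATG and of Dnmt1 to TTTGAA lie in windows not printed here. A match is a description of the letters, not a bound site.

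Among the 10 members Uhrf1 had by far the largest fall in differentiation, and Dnmt1 and Ezh2 had the next largest. Uhrf1 (chromosome 17, 56303337 to 56323486, GRCm38; gene ID 18140) stood at 357.0 and 346.0 CPM in WT proliferation (replicates 7 and 8; CPM is the count scaled to the TMM-adjusted library size) and at 385.8 and 357.1 CPM in KO proliferation. In differentiation Uhrf1 stood at 6.453 and 7.991 CPM in WT and at 6.601 and 8.459 CPM in KO. All 4 differentiation libraries lay far below all 4 proliferation libraries. The log2 fold change of Uhrf1 was -5.60 (SE 0.178) in WT, a 48.60-fold fall with an adjusted p of 5.96e-06 by edgeR's quasi-likelihood test with Benjamini-Hochberg adjustment. It was -5.62 (SE 0.178) in KO, with an adjusted p of 6.52e-06. A gene passed the test where its adjusted p was under 0.05. Within replicate numbers 7 and 8 the log2 change was -5.77 and -5.42 in WT and -5.85 and -5.38 in KO. Ordered from the strongest fall, Uhrf1 ranked 158 of 13046 genes in WT and 167 in KO.

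Dnmt1 (chromosome 9, 20907206 to 20959888; gene ID 13433) fell too, and its 95% interval in WT (-2.83 to -2.36) lay apart from that of Uhrf1 (-6.03 to -5.18). In proliferation it stood at 429.3 and 474.6 CPM in WT and at 462.2 and 468.3 CPM in KO. In differentiation it stood at 73.79 and 75.78 CPM in WT and at 94.41 and 91.55 CPM in KO. The conditions were apart, and within differentiation both KO libraries lay above both WT libraries. The log2 fold change was -2.60 (SE 0.0978) in WT, 6.043-fold, and -2.32 (SE 0.0967) in KO, 5.003-fold, with adjusted p of 1.00e-05 and 1.32e-05 by edgeR. Within numbers 7 and 8 it was -2.54 and -2.65 in WT and -2.29 and -2.35 in KO. Per gene length, on the authors' TPM scale, the level of Uhrf1 was 1.13 to 1.29 times that of Dnmt1 in the 4 proliferation libraries and 0.113 to 0.169 times in the 4 differentiation libraries.

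**Figure D1:**
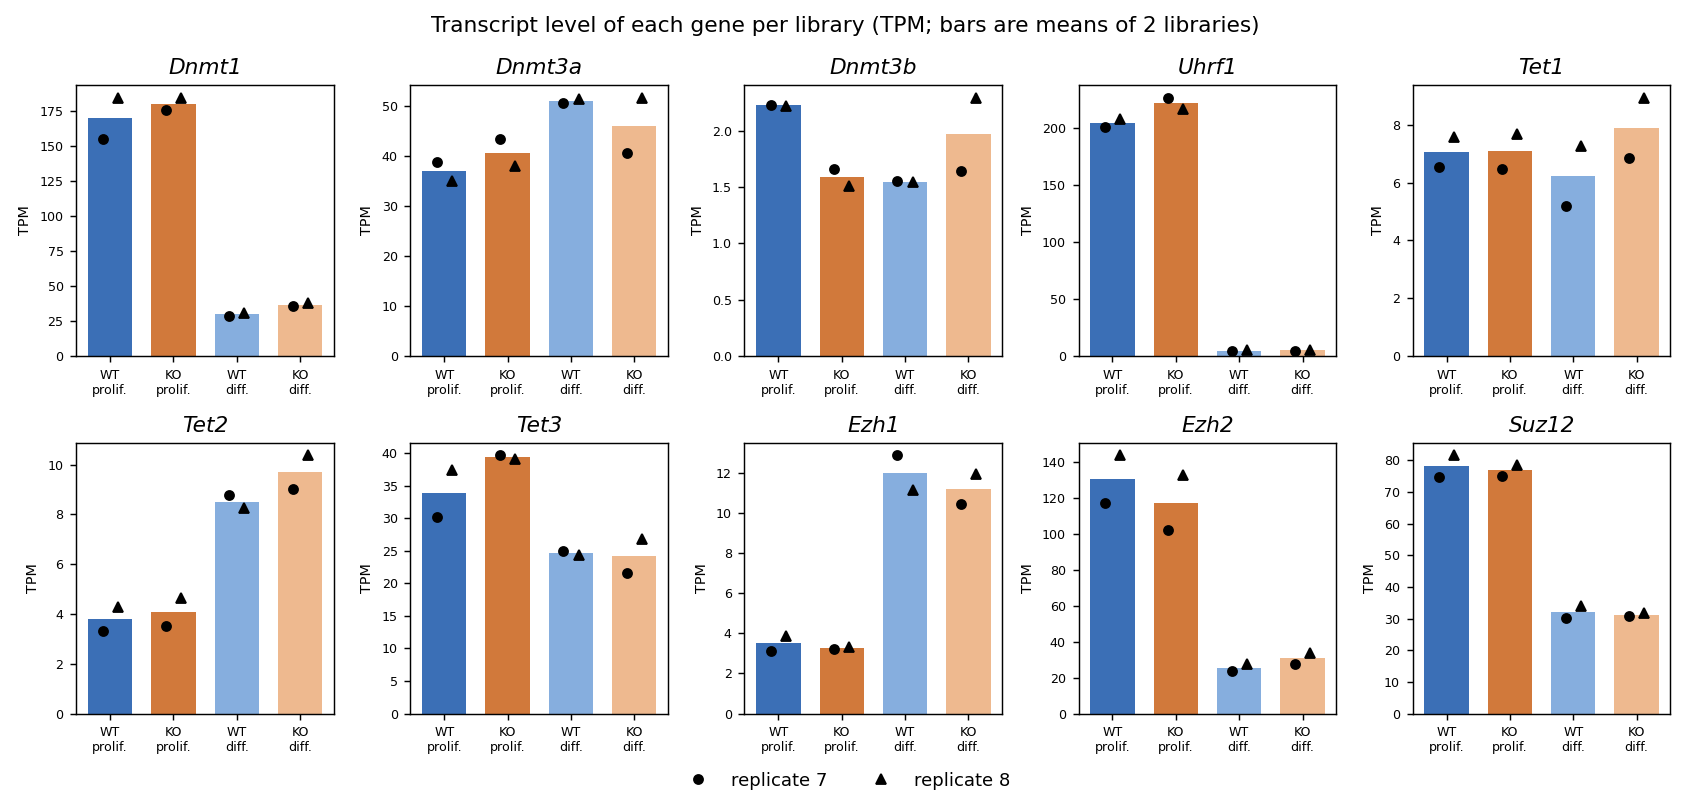
Level of each of the 10 genes per gene length (TPM, linear axis from 0 for each gene), with bars for the mean of 2 libraries in each group and points for replicates 7 and 8. Uhrf1 sits between 200.7 and 226.3 TPM in proliferation and between 4.02 and 5.57 TPM in differentiation, while Ezh1 and Tet2 lie higher in differentiation.

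Neither de novo enzyme passed the test. Dnmt3a (chromosome 12, 3801559 to 3914443; gene ID 13435), the main de novo enzyme of neural cells, stood at 195.1 and 166.0 CPM in WT proliferation and at 207.7 and 176.1 CPM in KO proliferation. In differentiation it stood at 234.9 and 230.5 CPM in WT and at 198.8 and 227.9 CPM in KO. The WT conditions did not overlap and the KO conditions did. This was a log2 fold change of 0.37 (SE 0.133, adjusted p 0.0537 by edgeR) in WT and 0.15 (SE 0.133, adjusted p 0.368) in KO, so neither passed. The WT value passed with DESeq2 size factors (adjusted p 0.0486), with DESeq2 itself (0.0282) and with limma-voom with quality weights (0.0376), and the authors' deposited table gives a q-value of 0.0452. For replicates 7 and 8 taken alone it was 0.27 and 0.47 in WT and -0.06 and 0.37 in KO.

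Dnmt3b (chromosome 2, 153648690 to 153687730; gene ID 13436), the other de novo enzyme, was the least abundant member per gene length (1.51 to 2.29 TPM), with 2.871 to 4.501 CPM in proliferation and 2.896 to 4.23 CPM in differentiation, or 52 to 85 reads in any library. Its log2 change with differentiation was -0.57 (SE 0.299, adjusted p 0.151 by edgeR) in WT and 0.24 (SE 0.299, adjusted p 0.533) in KO, and counts this low give the widest intervals of the 10 genes. The total TPM of the 3 methyltransferases ranged from 196.5 to 224.2 in proliferation and from 77.72 to 91.53 in differentiation. Dnmt1 made up 79.1% to 83.2% of that total in proliferation and 35.7% to 45.8% in differentiation. The share of Dnmt3a was 15.8% to 19.7% in proliferation and 52.1% to 62.4% in differentiation, so the more abundant transcript of the pair changed from Dnmt1 to Dnmt3a in both genotypes. The ratio of Dnmt1 to Dnmt3a was 4.01 to 5.27 in proliferation and 0.571 to 0.88 in differentiation.

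Of the 3 TET genes, Tet3 fell, Tet2 rose and Tet1 did not pass the test. Tet3 (chromosome 6, 83362373 to 83457208; gene ID 194388) stood at 177.5 and 205.1 CPM in WT proliferation, 221.9 and 211.2 CPM in KO proliferation, 135.6 and 126.8 CPM in WT differentiation and at 121.4 and 137.9 CPM in KO differentiation. Every differentiation library lay below every proliferation library. The log2 fold change was -0.54 (SE 0.116, adjusted p 0.00749 by edgeR) in WT and -0.74 (SE 0.116, adjusted p 0.00238) in KO. Within numbers 7 and 8 it was -0.39 and -0.69 in WT and -0.87 and -0.61 in KO.

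Tet2 (chromosome 3, 133463677 to 133585053; gene ID 214133), which lacks the DNA-binding CXXC domain of the other two, rose. It stood at 15.89 and 19.24 CPM in WT proliferation and at 16.28 and 20.64 CPM in KO proliferation. In differentiation it stood at 39.22 and 35.29 CPM in WT and at 41.83 and 43.90 CPM in KO, with no overlap between conditions. This was a log2 fold change of 1.08 (SE 0.163, adjusted p 0.00179 by edgeR) in WT and 1.22 (SE 0.163, adjusted p 0.00129) in KO. For replicates 7 and 8 taken alone it was 1.30 and 0.87 in WT and 1.36 and 1.09 in KO.

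Tet1 (chromosome 10, 62804570 to 62887469; gene ID 52463) stood at 49.93 and 53.78 CPM in WT proliferation, 47.14 and 54.00 CPM in KO proliferation, 36.58 and 49.07 CPM in WT differentiation and at 49.68 and 59.11 CPM in KO differentiation. Its log2 change was -0.28 (SE 0.170, adjusted p 0.210 by edgeR) in WT and 0.11 (SE 0.170, adjusted p 0.629) in KO, and the KO conditions overlapped. Within numbers 7 and 8 the Tet1 change was -0.45 and -0.13 in WT and 0.08 and 0.13 in KO. The summed TPM of the family overlapped between conditions, at 40.01 to 51.43 in proliferation and 37.44 to 46.1 in differentiation. Tet3 remained the most abundant of the 3, with 75.4% to 79.8% of the sum in proliferation and 57.6% to 64.1% in differentiation. Tet2 held 7.11% to 9.02% in proliferation and 20.7% to 24.1% in differentiation.

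The catalytic subunits of Polycomb repressive complex 2 moved in opposite directions. Ezh2 (chromosome 6, 47530274 to 47595270; gene ID 14056), the form typical of dividing cells, stood at 149.4 and 170.4 CPM in WT proliferation and at 124.8 and 156.4 CPM in KO proliferation. In differentiation it stood at 27.66 and 31.21 CPM in WT and at 33.58 and 37.80 CPM in KO. The conditions did not overlap. The log2 fold change was -2.44 (SE 0.156), 5.430-fold, in WT and -1.98 (SE 0.154), 3.938-fold, in KO, with adjusted p of 7.25e-05 and 0.000165 by edgeR. Within numbers 7 and 8 it was -2.43 and -2.45 in WT and -1.89 and -2.05 in KO.

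Ezh1 (chromosome 11, 101191115 to 101226463; gene ID 14055), which is known from non-dividing tissues, stood at 6.672 and 7.652 CPM in WT proliferation and at 6.500 and 6.554 CPM in KO proliferation. In differentiation it stood at 25.36 and 21.13 CPM in WT and at 21.28 and 22.33 CPM in KO. All 4 differentiation libraries were higher. This was a log2 fold change of 1.70 (SE 0.159), 3.243-fold, in WT and 1.74 (SE 0.160), 3.338-fold, in KO, with adjusted p of 0.000274 and 0.000326 by edgeR. For replicates 7 and 8 taken alone it was 1.91 and 1.45 in WT and 1.70 and 1.75 in KO.

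On the TPM scale Ezh2 was 32.0 to 39.8 times as abundant as Ezh1 in proliferation and 1.84 to 2.83 times in differentiation, so Ezh2 stayed the more abundant transcript in all 8 libraries. Ezh1 made up 2.45% to 3.03% of the summed TPM of the pair in proliferation and 26.1% to 35.2% in differentiation. That sum ranged from 105.4 to 147.4 TPM in proliferation and from 36.51 to 45.76 TPM in differentiation, so the rise of Ezh1 was smaller in TPM than the fall of Ezh2.

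**Figure D2:**
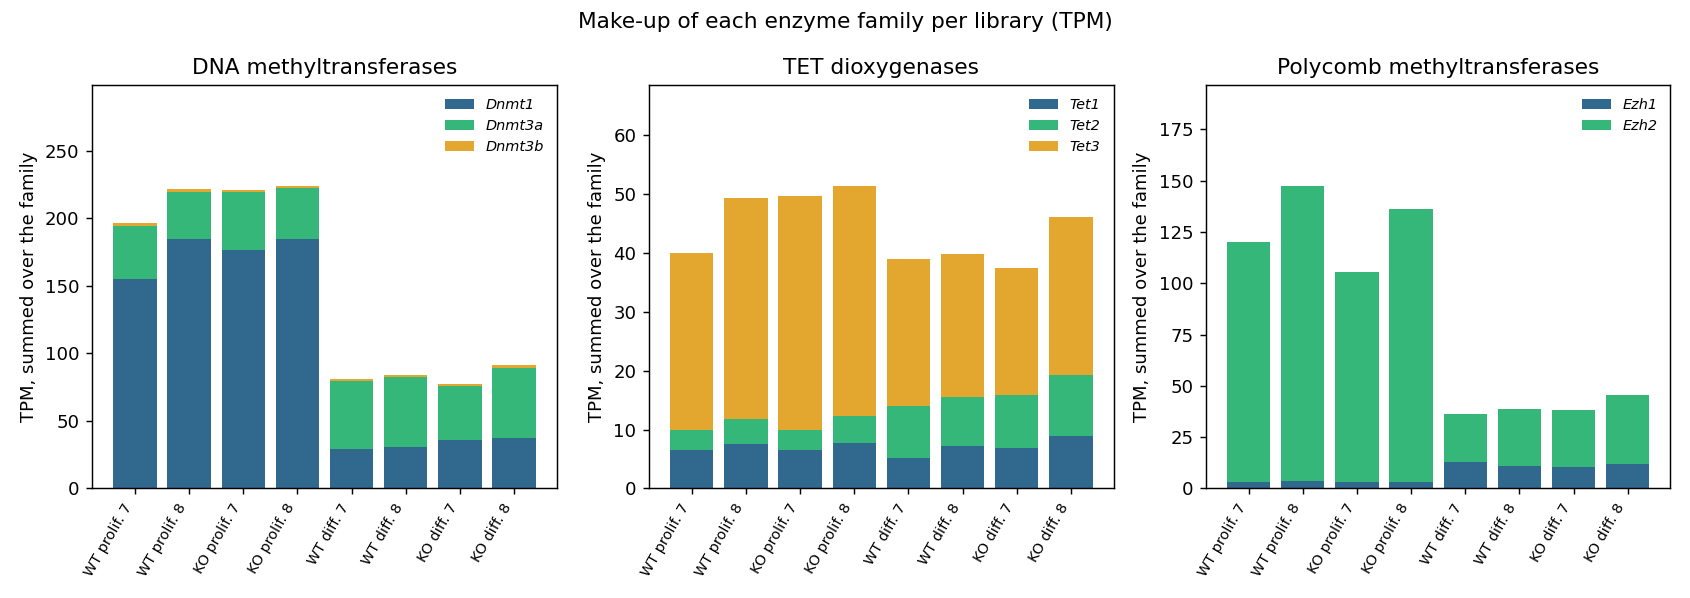
TPM (vertical axis, summed) of the DNA methyltransferase, TET and Polycomb methyltransferase genes stacked for each of the 8 libraries. Dnmt1 holds 79.1% to 83.2% of the first family in proliferation and 35.7% to 45.8% in differentiation, and Ezh1 grows from at most 3.03% to at least 26.1% of the third.

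Suz12 (chromosome 11, 79993106 to 80034123; gene ID 52615) stood at 166.0 and 168.6 CPM in WT proliferation, 159.4 and 160.9 CPM in KO proliferation, 61.50 and 66.56 CPM in WT differentiation and at 65.22 and 61.52 CPM in KO differentiation. The conditions did not overlap and replicates lay close together. Its log2 fold change was -1.39 (SE 0.0917, adjusted p 8.18e-05 by edgeR) in WT and -1.34 (SE 0.0916, adjusted p 0.000103) in KO. Within numbers 7 and 8 it was -1.43 and -1.34 in WT and -1.29 and -1.39 in KO. Suz12 stood at 0.553 to 0.714 of the summed TPM of Ezh1 and Ezh2 in proliferation and at 0.692 to 0.874 in differentiation.

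Counted together, 2 of the 10 members passed as higher in WT differentiation (Ezh1 and Tet2), where 27% of all tested genes did (3520 of 13046), and 5 passed as lower (Uhrf1, Dnmt1, Ezh2, Suz12 and Tet3), where 28.3% did. The same 2 and 5 members passed in KO, where 25.1% of tested genes passed as higher and 26.7% as lower. Libraries of the conditions did not overlap for 10 of 10 members in WT, against 81.2% of tested genes, and for 7 of 10 in KO, against 75.9%. The median log2 change of the members was -0.56 in WT and -0.32 in KO, and that of all tested genes was 0.01 in both.

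**Figure D3:**
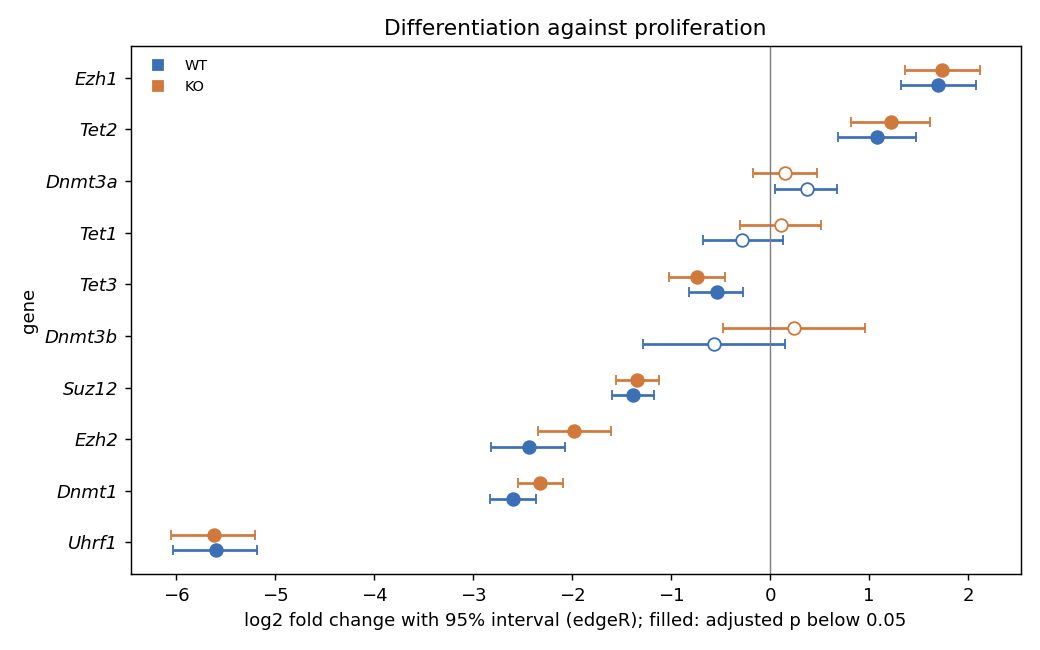
Log2 fold change of differentiation against proliferation for the 10 genes in WT and KO, with 95% intervals from edgeR, filled points passing an adjusted p of 0.05. Uhrf1 lies near -5.60 in both genotypes, Dnmt1, Ezh2, Suz12 and Tet3 lie below 0, and Ezh1 and Tet2 lie above 0.

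Further genes of these pathways were counted in the same contrasts. Among 16 partners in DNA methylation and its removal, 15 were tested, of which 3 rose and 6 fell in each genotype, with a median log2 change of -0.43 in WT and -0.32 in KO. Their log2 changes ran from -5.39 to 1.99 in WT and from -5.45 to 2.88 in KO. Hells, a chromatin remodeller that DNA methylation depends on, went from 84.30 and 92.41 CPM to 1.739 and 2.467 CPM in WT (log2 -5.39, adjusted p 1.05e-05 by edgeR), and its log2 change in KO was -5.45. Tdg, the glycosylase that removes oxidised methylcytosine, changed by -0.81 in WT and -0.57 in KO, and Cxxc1, which binds unmethylated CpG, by -0.62 and -0.44, and these passed the test too. Of 7 genes from the families of methyl-CpG readers, not all of them established readers, 2 rose and 1 fell (Mbd3) in WT. In KO 4 rose and 1 fell, again Mbd3 (medians 0.26 in WT and 0.43 in KO). On the log2 scale Zbtb4, a zinc finger reader, rose by 2.33 in WT and 1.67 in KO, and Mbd3 changed by -0.81 and -0.49.

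Of 11 other genes taken as partners of Polycomb repressive complex 2, not all of them subunits, 10 were tested. Of these, 1 rose and 5 fell in each genotype, and the median was -0.49 in WT and -0.66 in KO. Eed, the core subunit that binds the finished mark, stood at 53.32 and 51.28 CPM in WT proliferation and at 20.48 and 19.15 CPM in WT differentiation (log2 -1.40, and -1.08 in KO). The histone-binding subunits Rbbp7 and Rbbp4 changed by -1.40 and -0.69 in WT and by -1.41 and -0.76 in KO. Of 21 genes of Polycomb repressive complex 1, which ubiquitinates histone H2A, 4 rose and 9 fell in WT and 3 rose and 8 fell in KO, with medians of -0.14 and -0.07. L3mbtl2, Phc2 and Pcgf3 changed by -1.68, -1.19 and -0.92 in WT and by -1.48, -1.03 and -0.76 in KO. Over the 21 genes the log2 change ran from -1.68 to 2.65 in WT and from -1.48 to 2.00 in KO, so the largest changes were rises. Of 8 genes for demethylases of histone H3 lysine 27 and for the complex that removes ubiquitin from H2A, 1 rose and 3 fell in WT and none rose and 3 fell in KO (medians 0.06 and 0.03). The 3 that fell in WT were Foxk2 (-0.86), Asxl2 (-0.71) and Asxl1 (-0.53).

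All 30 DNA replication genes of a list that includes the Mcm helicase fell in both genotypes, with a median log2 change of -3.68 in WT and -3.60 in KO. Mcm6 went from 275.9 and 275.2 CPM to 23.29 and 21.61 CPM in WT, and Cdc45 and the chromatin assembly subunit Chaf1b changed by -4.17 and -6.57. Set in that list, Uhrf1 fell more than most, with 6 of the 30 genes falling further in WT and 4 in KO. Dnmt1 and Ezh2 fell less than most, with 26 and 29 genes falling further in WT and 28 and 28 in KO. All 30 fell further than Suz12 in both genotypes. Of 11 E2F and pocket protein genes, 2 rose and 7 fell in each genotype (medians -1.60 and -1.58). E2f8, a repressive E2F, stood at 68.36 and 71.32 CPM in WT proliferation and at 0.2244 and 0.4290 CPM in WT differentiation, and E2f7, a factor of the same kind, at 36.70 and 45.91 CPM and then at 0.2244 and 0.2145 CPM. Rbl1, a pocket protein that binds E2Fs, changed by -2.77. No gene of these lists passed in any test of KO against WT.

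**Figure D4:**
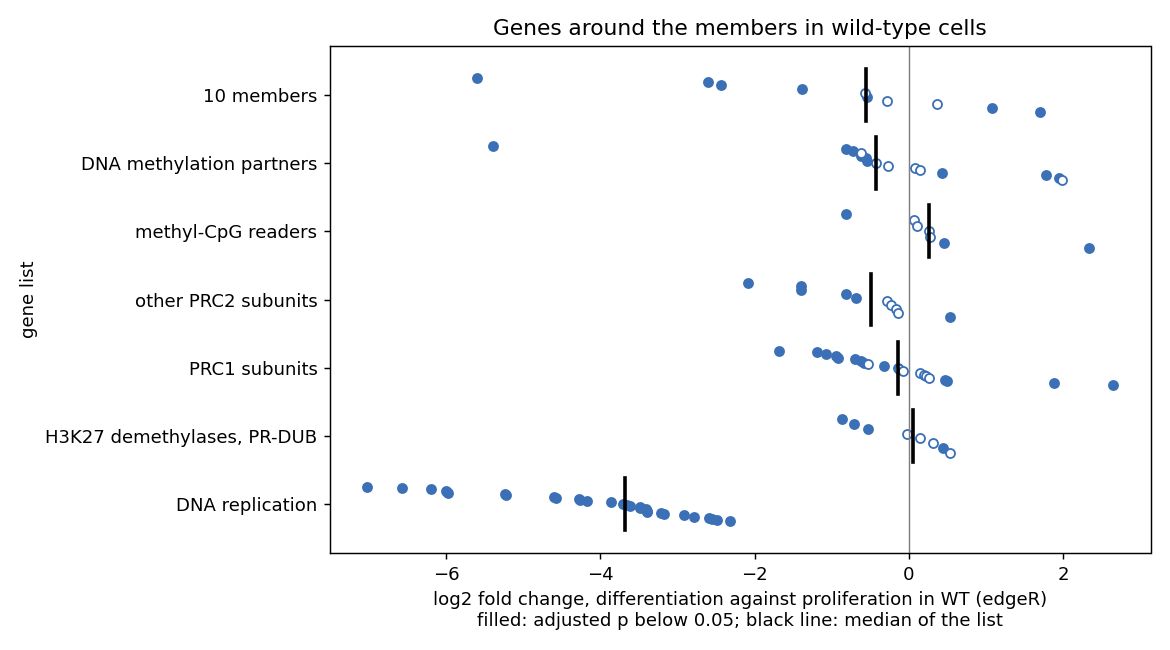
Log2 fold change of differentiation against proliferation in WT for the tested genes of each list (1 point per gene, filled where the adjusted p was under 0.05), with a black line at the list median. The 30 replication genes all lie below 0, while the other lists plotted hold genes on both sides.

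By the root mean square difference of centred log2 CPM over the 8 libraries, among 10764 tested genes with a mean of at least 5 CPM, the genes most like Dnmt1 were Cdc25a (0.0896), a phosphatase that drives entry into S phase, and Pcna (0.0948), the sliding clamp of replication. Those most like Uhrf1 were Ercc6l (0.161) and Racgap1 (0.168), both known for mitosis and cell division. Those most like Ezh2 were Nup107 (0.0962) and Tmpo (0.108), and those most like Suz12 were Ssrp1 (0.0399), a histone chaperone subunit, and Fkbp1a (0.0485). For Tet3 they were Nav2 (0.0512) and Setd1a (0.0535), for Tet2 Zfp950 (0.0586) and Zgpat (0.0643), and for Ezh1 Aldh4a1 (0.0675) and Mapk8ip3 (0.0938).

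Cell type markers moved with the condition. The 9 progenitor markers were detected in all 8 libraries, and their summed level was 6367 to 7242 CPM in proliferation and 3752 to 4370 CPM in differentiation. Of these 9 markers, 3 fell in both genotypes (Mki67, Nes and Olig2) and 3 rose (Hes5, Sox2 and Pax6), so the sum follows its most abundant genes. The log2 change of Sox2, a transcription factor of neural stem cells and glia, was 1.84 in WT and 1.58 in KO, and that of the filament gene Nes was -2.95 and -2.60. Mki67, the marker of cycling cells, was 545.5 to 654.9 CPM in proliferation and 0.2845 to 1.716 CPM in differentiation. The 10 astrocyte markers summed to 1385 to 1715 CPM in proliferation, where Gjb6 was at 0, and to 10677 to 14002 CPM in differentiation. Markers of oligodendrocyte precursors (6 of 6 listed) summed to 233.6 to 387.8 and 600.7 to 1399 CPM, of oligodendrocytes (6 of 7) to 95.15 to 253.9 and 408.4 to 554.8 CPM, and of neurons (7 of 7) to 1088 to 1302 and 1591 to 2073 CPM. Microglial markers (4 of 8 listed, Ptprc at 0 throughout) summed to at most 0.6008 CPM, those of endothelial cells and pericytes (4 of 6 listed) to at most 5.622 CPM and those of fibroblasts (5 of 5) to at most 10.40 CPM. The part of these changes in the members' levels was not tested, and in these bulk libraries fewer cells of a type and less RNA per cell cannot be told apart.

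The comparison of KO with WT asks whether YAP1 depletion alters these enzymes. Yap1 (gene ID 22601), the targeted gene, stood at 170.5 and 150.4 CPM in WT proliferation and at 27.04 and 32.71 CPM in KO proliferation, and at 106.8 and 93.69 CPM and 22.59 and 27.79 CPM in differentiation. Its log2 change was -2.42 (adjusted p 0.0322 by edgeR) in proliferation and -1.99 (adjusted p 0.106) in differentiation, and the first no longer passed once a single library, whichever of the 8, was left out. No member passed in either condition, in the mean of both or in the test of the difference between them. Beside these counts, 0% of all tested genes passed as higher and 0.00767% as lower in proliferation (Yap1 alone), 0% and 0% in differentiation, 0% and 0.00767% for the mean, and 0% and 0% for the difference. At an unadjusted p under 0.05, 186 genes were higher and 108 lower in proliferation with no member among them, and 244 were higher and 378 lower in differentiation with 1 member, Dnmt1. For the mean of both conditions 174 were higher and 238 lower, again with Dnmt1 (p 0.0312), and for the difference 209 were higher and 349 lower with no member. DESeq2 also called no member in any of the 4 tests. The authors' deposited DESeq2 comparisons give Yap1 a q-value of 8.77e-36 in proliferation and 1.69e-16 in differentiation. At a q-value under 0.05 they call 11 genes higher and 4 lower in proliferation, with no member among them. In differentiation they call 1 higher and 23 lower, again with no member.

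Dnmt1 had 1.243 times the WT level in KO differentiation, a log2 change of 0.31 (SE 0.0928, 95% interval 0.09 to 0.54, unadjusted p 0.0128, adjusted p 0.934 by edgeR). It was 0.36 and 0.27 within numbers 7 and 8. In proliferation the log2 difference of Dnmt1 was 0.04 (SE 0.0918), and the difference between the conditions was 0.27 (SE 0.131, adjusted p 0.981). Ezh2 differed by 0.28 (95% interval -0.08 to 0.64) in differentiation and by -0.19 (-0.54 to 0.17) in proliferation, with an adjusted p of 0.981 for the difference of 0.46 (SE 0.211). Tet1 differed by 0.34 (-0.06 to 0.75) in differentiation and Tet2 by 0.20 (-0.18 to 0.59), and neither passed.

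In proliferation, Dnmt3b differed by -0.51 (95% interval -1.23 to 0.20, adjusted p 1.00 by edgeR) and Tet3 by 0.18 (-0.10 to 0.45). Uhrf1 differed by 0.08 (-0.26 to 0.42), Suz12 by -0.06 (-0.28 to 0.15), Ezh1 by -0.13 (-0.51 to 0.25) and Dnmt3a by 0.09 (-0.23 to 0.41). In differentiation Uhrf1 differed by 0.06 (-0.33 to 0.45), Suz12 by -0.02 (-0.23 to 0.20), Ezh1 by -0.09 (-0.46 to 0.27), Tet3 by -0.02 (-0.29 to 0.26) and Dnmt3a by -0.13 (-0.44 to 0.19). For the 9 members other than Dnmt3b, every 95% interval in these 2 conditions lay between -0.54 and 0.75 on the log2 scale. KO and WT libraries did not overlap for 5 of 10 members in proliferation (Dnmt3b, Ezh1, Uhrf1, Tet3 and Suz12), against 30.3% of all tested genes, and for 5 of 10 in differentiation (Dnmt1, Dnmt3a, Ezh2, Tet1 and Tet2), against 31.5%. Beside the differentiation values, Gfap, the astrocyte filament gene, stood at 2918 and 2503 CPM in WT and at 448.6 and 1279 CPM in KO (log2 -1.65, adjusted p 0.934 by edgeR). Of the 9 astrocyte markers tested there, none passed, 4 were above 0 and 5 below 0, and the median log2 difference was -0.04. Foxj1, a regulator of motile cilia that makes up most of the summed ependymal markers, stood at 51.29 and 63.34 CPM in WT and at 17.58 and 28.54 CPM in KO (log2 -1.31, adjusted p 0.934 by edgeR). The other 6 ependymal markers were below 3 CPM in every library. The part of these genes in the members' values was not tested.

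**Figure D5:**
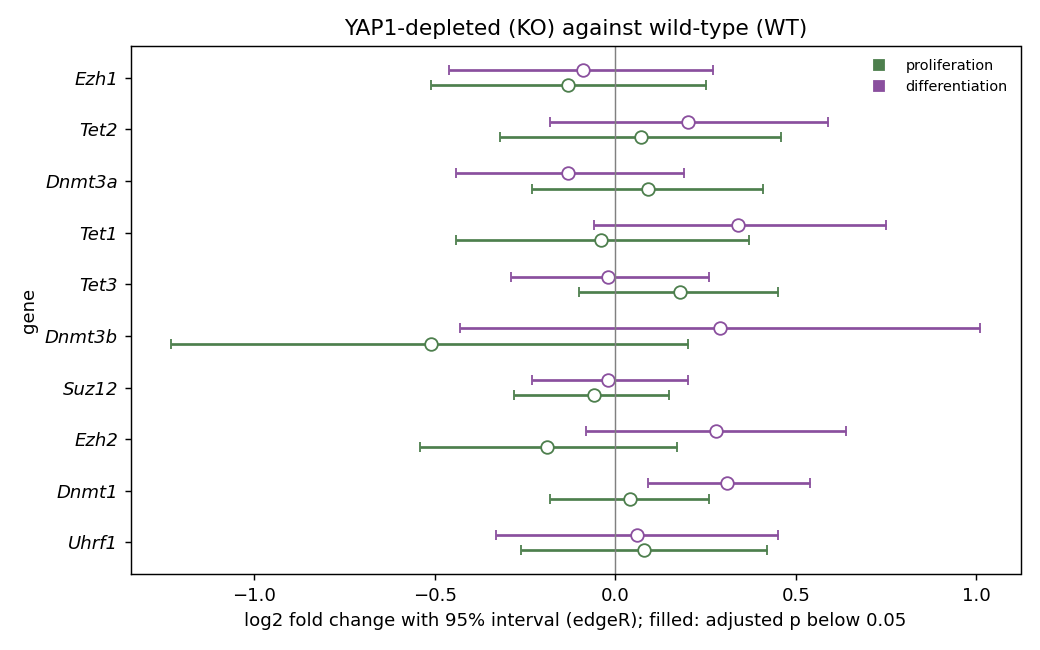
Log2 fold change of KO against WT in proliferation and in differentiation for the 10 genes, with 95% intervals from edgeR. All points are open, since no adjusted p was under 0.05, and Dnmt1 in differentiation (0.09 to 0.54) is the 1 member whose interval lies to one side of 0.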

How the data were processed

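Per the labels' protocols, stranded (dUTP) libraries of poly(A) RNA were read by DNBSEQ. The authors deposited expected counts per gene, not normalised, and TPM values, per the file headers, and their DESeq2 comparisons as log2 fold changes with q-values, per the file headers. The aligner, the counting tool and any use of strand in counting are not stated, so reads of a gene overlapping a member on the other strand could be counted with it. The submitters' processing notes name the build GRCm39, while deposited gene positions are those of GRCm38 (85.4% of 16878 genes matched by ID start as in RefSeq GRCm38.p6). The deposited strand of some genes differs from RefSeq, and promoter strands are from RefSeq. The table also holds 12 per-library columns of libraries that no label names, which were left unused.

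Counts were rounded to whole numbers, filtered with filterByExpr, scaled by TMM and tested two-sided with edgeR 4.0.16 (R 4.3.3; robust quasi-likelihood F-test; 1 model with a term per group; 4 residual degrees of freedom). Adjustment was by Benjamini-Hochberg over 13046 genes, with a threshold of 0.05. SE is the log2 change divided by the square root of F, and 95% intervals use the total degrees of freedom. The script was tested on simulated data with planted changes. For KO against WT in proliferation it recovered 41% of 2-fold and 78% of 4-fold changes. In differentiation it recovered 34% and 68%, and for differentiation against proliferation in WT 33% and 76%. Between 7 and 10 genes without a planted change passed in each run. Changes were planted in a small part of the genes, whereas 27% passed as higher and 28.3% as lower in the real WT differentiation contrast. The simulated recovery therefore does not describe that contrast. Alternatives were DESeq2 1.42.0 and its size factors, limma 3.58.1 (voom with quality weights), no filter, a replicate block, the compared groups alone, and each library left out.

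Named are the 10 members, Yap1, the 3 genes of each list with the smallest p in WT differentiation, any list gene called in KO against WT (none) and the 2 genes most alike in pattern to each member that passed in both genotypes. The values of 1 gene under this rule are not reported here. Mki67, Nes, Olig2, Hes5, Sox2, Pax6, Gfap and Foxj1 are markers named after their values were seen. Members and lists were chosen with earlier results of these data known. Intervals cover the spread between libraries and n = 2 limits every group.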

Additional observations from a re-analysis of the deposited data

How the results depend on the processing

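Of 820 member values under 14 other settings, 782 kept their direction and side of the threshold, 5 came to pass, none of the calls was lost and 33 changed sign, all 33 among the runs that left out 1 library and all in values that had not passed. The 5 that came to pass were in WT differentiation, 4 for Dnmt3a (adjusted p 0.0282 to 0.0486, and 0.0304 with the replicate block) and 1 for Tet1 (-0.29, adjusted p 0.0476 with the replicate block). With a library left out, values that changed sign ranged as follows on the log2 scale. For differentiation in KO they were Dnmt3b -0.04 to 0.47, Tet1 -0.02 to 0.22. For KO against WT in proliferation they were Dnmt1 -0.04 to 0.11, Dnmt3a -0.04 to 0.20, Tet1 -0.15 to 0.06, Tet2 -0.12 to 0.23. In differentiation they were Ezh1 -0.22 to 0.05, Suz12 -0.07 to 0.04, Tet3 -0.11 to 0.07, Uhrf1 -0.13 to 0.23. For the mean of both conditions they were Dnmt3a -0.08 to 0.04, Dnmt3b -0.25 to 0.01, Ezh2 -0.05 to 0.12, Uhrf1 -0.02 to 0.15. For the difference between the KO effects they were Ezh1 -0.08 to 0.18, Suz12 -0.01 to 0.11, Tet2 -0.03 to 0.32, Uhrf1 -0.21 to 0.15. These runs leave 1 library in an arm, which is assumed to vary like the other groups.

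No member was called in KO against WT under any setting, while counts over all genes moved. In proliferation DESeq2 called 6 higher and 5 lower, limma-voom 1 higher and the replicate block 1 higher. Fitting the compared groups alone called 0 lower, and leaving out any library gave 0 to 0 lower, where the model of all groups called 1. In differentiation DESeq2 called 4 higher and 36 lower, the replicate block 3 lower and no filter 1 lower. For the mean DESeq2 called 9 higher and 13 lower, the replicate block 2 higher and 2 lower, and leaving out a library 0 to 1 lower, with 0 without WT differentiation replicate 7 or KO differentiation replicate 7. For the difference DESeq2 called 3 higher and 10 lower. With the replicate block, 3 members were higher and 6 lower in WT differentiation. The labels do not say what the shared numbers 7 and 8 mark, so the design does not establish that they pair the libraries. As a hint from the data, deviations of same-numbered libraries from their group means correlated at 0.538 to 0.784 across genes, and the second principal component (10.7% of variance) separated the numbers. The causes of these differences between settings were not tested.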

Other observations

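The Ink4 genes Cdkn2a and Cdkn2b encode cell cycle inhibitors and are known as targets of Polycomb repression. Cdkn2b rose with differentiation in both genotypes and Cdkn2a passed in WT. Cdkn2b stood at 2.648 and 1.275 CPM in WT proliferation and at 29.07 and 25.26 CPM in WT differentiation (log2 3.79, adjusted p 0.000975 by edgeR's quasi-likelihood test). In KO it stood at 2.130 and 1.354 CPM and then 29.88 and 15.47 CPM (log2 3.70, adjusted p 0.00126). Cdkn2a stood at 45.33 and 35.66 CPM in WT proliferation and at 69.46 and 60.39 CPM in WT differentiation (log2 0.68, adjusted p 0.0291), and its change in KO was 0.44 (adjusted p 0.116), with a test of the difference between genotypes at an adjusted p of 1.00.

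Germline genes that DNA methylation keeps silent in body cells were low. Of 13 such genes, 8 are listed and 1, Ddx4, had enough reads to test, and the summed level of the 8 was 0.2708 to 0.9002 CPM in proliferation and 1.392 to 4.268 CPM in differentiation. Ddx4 made up most of that sum in every library, and 3 of the 8 were at 0 throughout, so the sum shows no general change of the list. Ddx4 stood at 0.8472 and 0.5846 CPM in WT proliferation and at 3.142 and 1.984 CPM in WT differentiation (log2 1.83, adjusted p 0.0681 by edgeR). In KO it stood at 0.4916 and 0.1625 CPM and then 4.040 and 1.338 CPM (log2 3.01, adjusted p 0.0169), and the difference between genotypes had an adjusted p of 0.994.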
